A study of Mus musculus with 13 samples.

Results

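The 76 genes described here encode proteins of the cytosolic ribosome of the mouse. They were chosen by name: every gene of the deposited table whose symbol is Rpl or Rps followed by a number, with or without a final a or x, together with Rplp0, Rplp1, Rplp2 and Rpsa. They are 46 proteins of the large subunit and 30 of the small subunit, out of 30479 genes in the table. Pseudogenes and the paralogs Rpl10l, Rpl39l, Rpl22l1, Rpl7l1 and Rps27l are not members, and some proteins with other names, among them Fau, Rps3a1 and the ribosome-associated Rack1, fall outside the naming rule. Chromosome X carries 4 members (Rpl10, Rpl36a, Rpl39 and Rps4x) and the autosomes carry 72.

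Each ribosomal protein is needed in a single copy per ribosome, apart from the acidic stalk proteins, so cells make their mRNAs in step. Most of these mRNAs are short and begin with a 5′ terminal oligopyrimidine (TOP) tract, a cytosine followed by a run of pyrimidines through which the growth-regulating kinase mTORC1 and the RNA-binding protein Larp1 control their translation. During male meiosis the X chromosome is silenced, and spermatids keep much of that silence. Autosomal copies of X-linked ribosomal protein genes are used in germ cells, and in mice Rpl10l has been shown to take over from Rpl10 in meiosis.

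The libraries came from mice with 3 genotypes at Wfdc15a, a gene of the WAP four-disulfide core family: KO (knockout), Het (1 mutant copy) and WT (wild type), all at postnatal day 25. Round spermatids, haploid germ cells sorted by DNA content, gave 3 KO, 2 Het and 2 WT libraries of 100 to 200 cells each, and whole testis gave 3 KO, 1 Het and 2 WT libraries. The labels give neither the strain nor the allele, and they do not say which libraries came from separate mice, so p-values measure the spread between these libraries, which may be technical. The stated question was the role of Wfdc15a in spermatogenesis.

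Libraries held 10825691 to 20927430 reads in round spermatids and 7375272 to 18438710 in testis. The gene Wfdc15a itself stood at 48.1 to 97.9 reads-per-million (RPM) in KO, 65.0 and 71.5 in Het and 234 and 267 in WT spermatids, and at 36.8 to 116 in KO, 48.4 in Het and 207 and 212 in WT testis, so reads remained in every KO library. All 12 round spermatid markers had reads in every group. In WT, 8 of them were higher and 4 lower in spermatids than in testis (median log2 difference +1.41, lowest -2.36). The testis KO library of replicate 1 had reads in 15435 genes, against 19966 to 23092 in the others. The libraries stand apart in a way that crosses genotype. In spermatids KO replicate 1 was near WT in its marker sums, and KO replicates 2 and 3 were near Het. In testis KO replicates 2 and 3 were again near Het, while KO replicate 1 was near WT in Sertoli markers and between the others in stromal ones. The summed level of 9 stromal and myoid markers was 3.54, 638 and 1098 RPM in KO replicates 1, 2 and 3, 544 and 491 in Het and 5.55 and 4.56 in WT spermatids. The sum of 10 Sertoli cell markers was 25.4, 1525 and 1627 RPM in KO replicates 1, 2 and 3, 1468 in Het and only 28.5 and 38.8 in WT testis, where the Sertoli gene Amh had no read. The stromal and myoid sum was 221, 963 and 1448 RPM in KO replicates 1, 2 and 3, 928 in Het and 27.1 and 32.9 in WT testis. Comparisons between genotypes are therefore also given without KO replicate 1, and KO minus WT also within WT and KO replicate 1. Without KO replicate 1, and for Het minus WT throughout, genotype and this grouping of libraries cannot be told apart.

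The promoters of the members show how these genes are built. The RefSeq table of 300-base windows (GRCm38.p6, from 250 bases before to 50 bases from the annotated start) held 56 of the 76. A TOP start, a C at the annotated start followed by at least 4 further C or T, was found in 12 of them (21.4%), against 477 of 19966 promoters in the table (2.39%). The letters CCGGAAG, bound by the ETS factor GABP, were found on either strand in 22 members (39.3%), against 11.1% of all promoters. The letters AAGATGGC, bound by YY1, were in 4 (7.14%), against 3.08%, and the GC box GGGCGG of Sp1 was in 33 (58.9%), against 43.1%. The TATA box letters TATAAA were in 5 (8.93%), against 13.4%. All but the TOP start were searched on both strands, and CCGGAAG and AAGATGGC can share up to 3 bases. The following windows, 100 bases before to 30 bases from the start on the gene's own strand, are shown for 4 members that were low in KO libraries, for Rpl10 and Rps4x, which were high there, and for Rpl14, which was high in KO spermatids only. Capitals mark CCGGAAG, AAGATGGC and the TOP run at the start.
Rpl38, chr11:114668480-114668609, plus strand: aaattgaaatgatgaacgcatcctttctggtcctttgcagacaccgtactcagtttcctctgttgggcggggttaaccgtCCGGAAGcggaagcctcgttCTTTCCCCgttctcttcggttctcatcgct
Rps27, chr3:90213619-90213748, minus strand: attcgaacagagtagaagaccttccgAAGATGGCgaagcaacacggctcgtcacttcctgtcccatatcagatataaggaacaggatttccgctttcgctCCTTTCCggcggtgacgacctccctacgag
Rps21, chr2:180257279-180257408, plus strand: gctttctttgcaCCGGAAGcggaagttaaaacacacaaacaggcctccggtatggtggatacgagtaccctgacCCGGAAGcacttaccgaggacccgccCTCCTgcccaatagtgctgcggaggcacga
Rpl41, chr10:128549139-128549268, minus strand: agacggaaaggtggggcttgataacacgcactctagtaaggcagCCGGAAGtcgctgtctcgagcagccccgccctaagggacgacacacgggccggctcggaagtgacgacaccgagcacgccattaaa
Rpl14, chr9:120571417-120571546, plus strand: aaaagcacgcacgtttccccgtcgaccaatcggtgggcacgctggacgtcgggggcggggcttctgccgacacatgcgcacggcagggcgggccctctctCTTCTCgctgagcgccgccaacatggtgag
Rpl10, chrX:74270716-74270845, plus strand: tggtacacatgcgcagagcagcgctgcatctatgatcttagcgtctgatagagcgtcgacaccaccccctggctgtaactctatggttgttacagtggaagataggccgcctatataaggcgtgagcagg
Rps4x, chrX:102189362-102189491, minus strand: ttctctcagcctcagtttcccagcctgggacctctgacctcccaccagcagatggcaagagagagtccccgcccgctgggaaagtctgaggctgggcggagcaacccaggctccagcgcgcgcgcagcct
In Rps27, Rps21, Rpl10 and Rps4x the RefSeq start lay 3, 2, 4 and 3 bases from the end of the gene given in the deposited table. In Rpl38, Rpl41 and Rpl14 it lay 56, 137 and 73 bases away, so a start read from these windows need not be the one used in the testis.

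Ribosomal protein mRNAs took a smaller part of the library in KO than in WT, in both cell types. In round spermatids the 76 genes drew 1.497%, 0.967% and 0.730% of reads in KO, 0.759% and 0.668% in Het and 1.73% and 1.75% in WT. In testis they drew 2.65%, 1.06% and 1.26% in KO, 0.876% in Het and 4.63% and 4.85% in WT. Every KO and Het library lay below every WT library of its cell type. The mean share was 1.06% ± 0.393 in KO (SD, n = 3) and 1.74% ± 0.01004 in WT spermatids (n = 2), a ratio of 0.611, and 1.65% ± 0.864 in KO (n = 3) and 4.74% ± 0.157 in WT testis (n = 2), a ratio of 0.349. With groups of 3 and 2 an exact permutation test cannot reach 0.05 and none is given. The KO library closest to WT was replicate 1 in both cell types, and the lowest share within each cell type was in a Het library. In such bulk libraries, fewer cells of a type and less RNA per cell cannot be told apart.

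**Figure D1:**
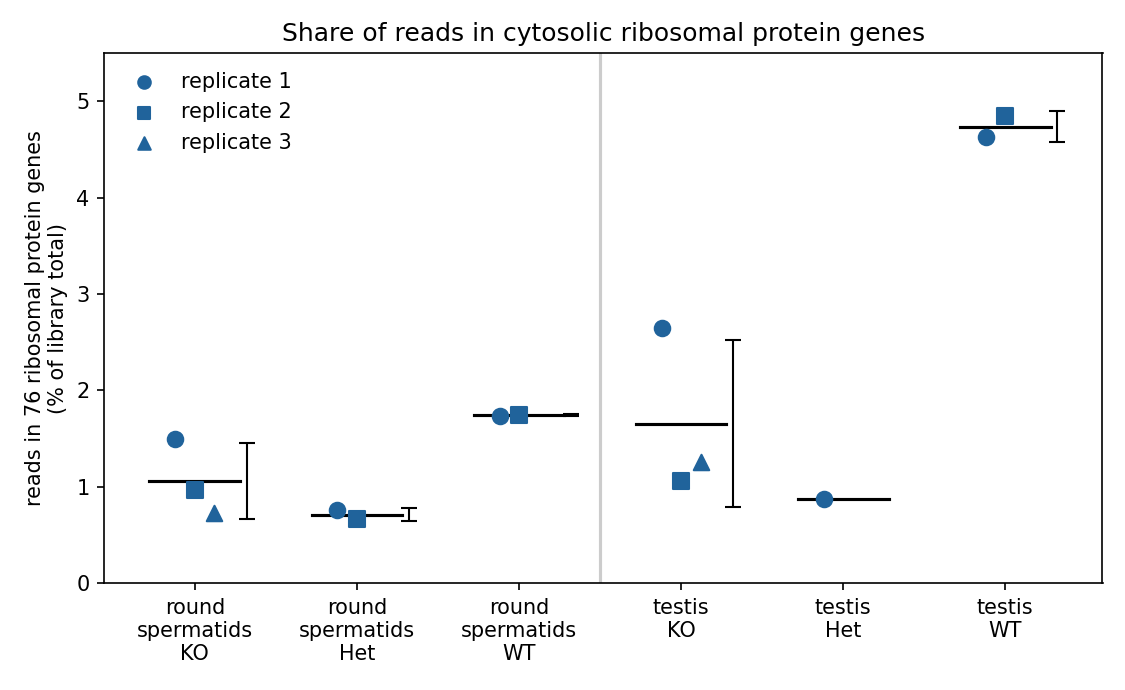
Percent of each library's reads that fell in the 76 cytosolic ribosomal protein genes, by cell type and genotype (points, libraries; lines, group means; bars, SD where a group has more than 1 library). KO and Het libraries lie below the WT libraries in round spermatids (at most 1.497% against at least 1.73%) and in testis (at most 2.65% against at least 4.63%).

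In whole testis, 73 of the 76 members were lower in KO than in WT on the log2(RPM + 1) scale and 3 were higher. The median difference was -1.70, while the median over all 18570 genes tested was +0.63, so relative to that shift the members stood at -2.33. No member passed an adjusted p of 0.05 in limma's moderated test with Benjamini-Hochberg adjustment over all genes, and neither did any other gene (0% of all genes). Voom on the recovered reads called 0 members as well. At an unadjusted p under 0.05 there were 58 lower members and 1 higher one, against 23.6% of all genes in either direction, and the smallest adjusted p of a member was 0.0710. In 64 members every KO library was below every WT library, as was true of 14.1% of all genes, and in 2 every KO library was above, against 28.2%.

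The lowest values in KO testis belonged to short mRNAs of both subunits. Rps29, a zinc-binding protein of the small subunit head, had 604, 72.3 and 100.1 RPM in KO, 50.5 in Het and 1043 and 1131 in WT testis. All KO libraries were below both WT libraries, and replicate 1 was the nearest. The difference was -2.72 (SE 0.88, limma adjusted p = 0.138). Rpl37a, a zinc-binding protein of the large subunit, had 528, 92.7 and 111 RPM in KO, 66.4 in Het and 1002 and 1113 in WT testis, a difference of -2.58 (SE 0.75). Rpl41, a peptide at the bridge between the subunits and the shortest member, had 1508, 281 and 344 RPM in KO, 227 in Het and 2961 and 3146 in WT testis, a difference of -2.53 (SE 0.71). The groups did not overlap in either gene, and Het lay below every KO library in both. Rps21 of the small subunit (-2.38, SE 0.62) and Rpl32 of the large subunit (-2.37, SE 0.57) completed the 5 lowest.

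The acidic stalk, through which the large subunit recruits elongation factors, had its 4 genes between -2.03 and -1.24 in KO testis, with a median of -1.63. Its anchor Rplp0 had 2409, 1038 and 1164 RPM in KO, 949 in Het and 3729 and 3061 in WT testis, and no KO library reached a WT one. Rpl5 and Rpl11, which carry the 5S ribosomal RNA and hold the p53 inhibitor Mdm2 when free, differed by -0.81 (SE 0.39) and -1.92 (SE 0.40). Of the 9 proteins at the peptide exit tunnel, KO was below WT in all, and their median was -1.46. The 14 proteins of the small subunit head were also all negative, at a median of -1.89. None of these groups held a member that passed the limma test.

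A few members did not follow. Rpl4, which lines the exit tunnel, had 173, 399.5 and 437 RPM in KO, 364 in Het and 429 and 373 in WT testis, and the groups overlapped. Its difference was -0.36 (SE 0.46). Rpl14 of the large subunit had 80.9, 143 and 189 RPM in KO, 109.6 in Het and 149 and 165 in WT testis, a difference of -0.27 (SE 0.43). Rpl3, a core protein near the peptidyl transferase centre, had 23.6, 162 and 186 RPM in KO, 140.4 in Het and 173 and 163 in WT testis. In all 3 genes KO replicate 1 was the lowest testis library of the 6, whereas it was the highest KO library in Rps29. Both Rpl4 and Rpl14 were above 0 without that library, at +0.06 and +0.07.

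In round spermatids the median difference between KO and WT was -0.80, against +0.03 over all 18075 genes tested, and 63 members were lower and 13 higher in KO. Again 0 members and 0% of all genes passed the limma test, voom called 0 members, and the smallest adjusted p of a member was 0.122. At an unadjusted p under 0.05, 46 members were lower and 6 were higher, against 21.1% of all genes in either direction. Every KO library was below every WT library in 47 members (19.4% of all genes), and above in 6 members (16.6% of all genes): Rps3, Rpl14 and the 4 X-linked members.

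Rps29 was again the lowest, with 268, 134 and 65.0 RPM in KO, 67.5 and 61.2 in Het and 486 and 472 in WT spermatids. The KO and WT libraries did not overlap, and replicate 3 of KO lay among the Het libraries. The difference was -1.84 (SE 0.44, limma adjusted p = 0.127). Rpl38, a large subunit protein known for its part in translation of Hox mRNAs in the mouse embryo, had 85.3, 34.7 and 22.7 RPM in KO, 21.0 and 18.1 in Het and 148 and 136 in WT spermatids, a difference of -1.78 (SE 0.44). Rps21, Rps27 and Rpl37a followed at -1.63, -1.54 and -1.53. The stalk had a median of -0.84, the 5S proteins Rpl5 and Rpl11 stood at -0.33 and -0.90, and the exit tunnel and the small subunit head had medians of -1.02 and -0.93. Rplp0 overlapped between groups, with 1323, 915 and 889 RPM in KO, 842 and 763 in Het and 1160.4 and 1293 in WT spermatids. Rps6, a target of S6 kinase, had 235, 202 and 179 RPM in KO, 179 and 176 in Het and 242 and 257 in WT spermatids, a difference of -0.29 (SE 0.18). Rpl13a, known from interferon-regulated translation in human cells, differed by -1.07 (SE 0.24) and had the smallest adjusted p of the members by limma.

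The size of the difference varied with the coding length of the member. Coding lengths, taken from GENCODE M21, where all 76 lay at the coordinates of the deposited table, ran from 75 bases in Rpl41 to 1257 in Rpl4. In round spermatids the 25 shortest members (75 to 399 bases) had a median KO minus WT difference of -1.20, the 26 middle ones (405 to 564) -0.89 and the 25 longest (576 to 1257) -0.25. In testis the medians were -1.99, -1.81 and -1.15. Across the members the Spearman correlation of the difference with coding length was 0.74 in spermatids and 0.64 in testis, and over the 72 autosomal members 0.85 and 0.72. The trend was not particular to KO. For Het minus WT the correlation across the members was 0.76 in spermatids and 0.74 in testis. For KO minus Het it was -0.75 and -0.73. Genes are not independent replicates and these libraries are shared by all points, so no p is given. Over all other protein-coding genes tested the KO minus WT correlation was 0.17 across 14532 genes in spermatids and 0.36 across 15106 in testis. Genes with a coding length under 600 bases that encode no member had a median difference of -0.24 in spermatids and -0.10 in testis, against +0.18 and +0.89 for longer genes.

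Short mRNAs in general were also a smaller part of the KO and Het libraries than of the WT ones. Non-member genes under 600 coding bases drew 15.8%, 11.5% and 10.3% of reads in KO, 10.4% and 10.1% in Het and 17.7% and 16.9% in WT spermatids. In testis they drew 17.7%, 9.77% and 9.94% in KO, 9.10% in Het and 23.7% and 24.4% in WT. The part of this library-wide difference in the values of the members was not tested. A loess on transcript length, removed from each library, left a median member difference of -0.54 in spermatids and -1.02 in testis. The median over all genes was then +0.03 and +0.49. The Spearman correlation of the member differences with coding length was still 0.62 in spermatids and 0.47 in testis.

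**Figure D2:**
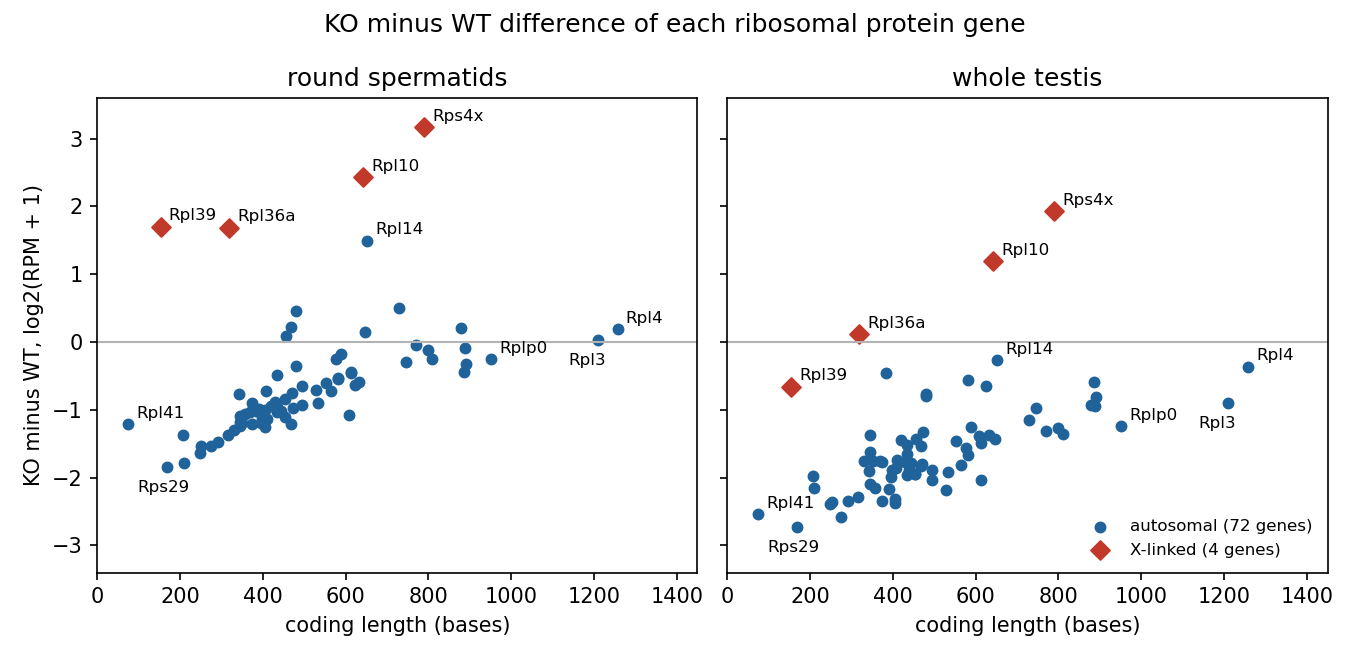
KO minus WT difference of each of the 76 members on the log2(RPM + 1) scale (vertical) against its coding length in bases (horizontal), in round spermatids and whole testis. The shortest autosomal members (circles) lie lowest and the longest nearest 0, and the X-linked members (diamonds) lie above the autosomal ones of like length.

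The medians of the 4 X-linked members stood apart from those of the 72 autosomal ones, but single members did not all do so. Autosomal Rpl14 had 22.1, 45.2 and 42.3 RPM in KO, 31.5 and 36.1 in Het and 14.3 and 9.61 in WT spermatids. In testis the difference of X-linked Rpl39 was below those of autosomal Rpl4 and Rpl14. The X-linked medians were +2.07 in spermatids and +0.65 in testis, against -0.89 and -1.75 for the autosomal members. Rps4x, the X copy of small subunit protein eS4, had 2.91, 28.2 and 38.0 RPM in KO, 15.8 and 23.7 in Het and 2.34 and 0 in WT spermatids, where a count of 0 allows up to 0.147 RPM. Replicate 1 of KO was close to WT, and the other KO libraries were above both Het libraries. The difference was +3.17 (SE 0.89, limma adjusted p = 0.132). Rpl10, which completes the 60S subunit late in its maturation, had 7.502, 26.3 and 37.3 RPM in KO, 18.6 and 17.7 in Het and 1.81 and 4.27 in WT spermatids, a difference of +2.43 (SE 0.59). Rpl39 of the exit tunnel (+1.70, SE 0.65) and Rpl36a near the place where used transfer RNA leaves the large subunit (+1.69, SE 0.61) were at most 10.2 RPM in any spermatid library.

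In testis, Rps4x had 90.0, 69.8 and 95.9 RPM in KO, 55.6 in Het and 20.01 and 22.9 in WT, with all KO libraries above both WT ones. Its difference of +1.93 (SE 0.39, limma adjusted p = 0.0717) was the highest of the members. Rpl10 had 31.3, 55.7 and 99.4 RPM in KO, 67.5 in Het and 25.1 and 22.6 in WT testis, a difference of +1.20 (SE 0.57). The other 2 overlapped between the groups, at +0.11 for Rpl36a and -0.66 for Rpl39. The sign for Rpl36a was not stable: it was -0.83 with libraries centred on their median gene and -0.86 after quantile normalization.

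The X-linked, stromal and Leydig sums were all higher in Het and KO replicates 2 and 3 than in WT and KO replicate 1 spermatids. KO replicate 3 was the highest spermatid library in each of these sums. KO replicate 2 lay above both Het libraries in the X-linked and stromal sums and below both in the Leydig sum. The summed X-linked level was 13.05, 71.8 and 85.2 RPM in KO, 40.2 and 45.3 in Het and 5.43 and 5.30 in WT spermatids, where the stromal and myoid sum was highest in the same KO replicates 2 and 3. The Leydig marker sum was 1.48, 19.9 and 73.5 RPM in KO, 50.2 and 54.0 in Het and 1.40 and 0.294 in WT spermatids, with Cyp17a1, Hsd3b1, Lhcgr and Hsd17b3 without a read in WT. The part of somatic RNA in the X-linked values was not tested. Within the WT libraries and KO replicate 1, whose stromal sums were 3.54 in KO and 4.56 to 5.55 in WT, Rpl10 differed by +1.14 (SE 0.64) and Rps4x by +1.10 (SE 0.75) in spermatids, and neither passed the limma test. Rpl36a and Rpl39 were too low to be tested there. Autosomal paralogs of Rpl10 and Rpl39 are named here, outside the rule, for their relation to these members. Rpl10l had 246, 178 and 185 RPM in KO, 192 and 169 in Het and 218 and 239.9 in WT spermatids. Rpl39l had 654, 284 and 207 in KO, 225 and 211 in Het and 611 and 602 in WT spermatids. In Rpl10l the KO and WT libraries overlapped, and in Rpl39l KO replicate 1 was above WT and the other KO libraries were below.

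**Figure D3:**
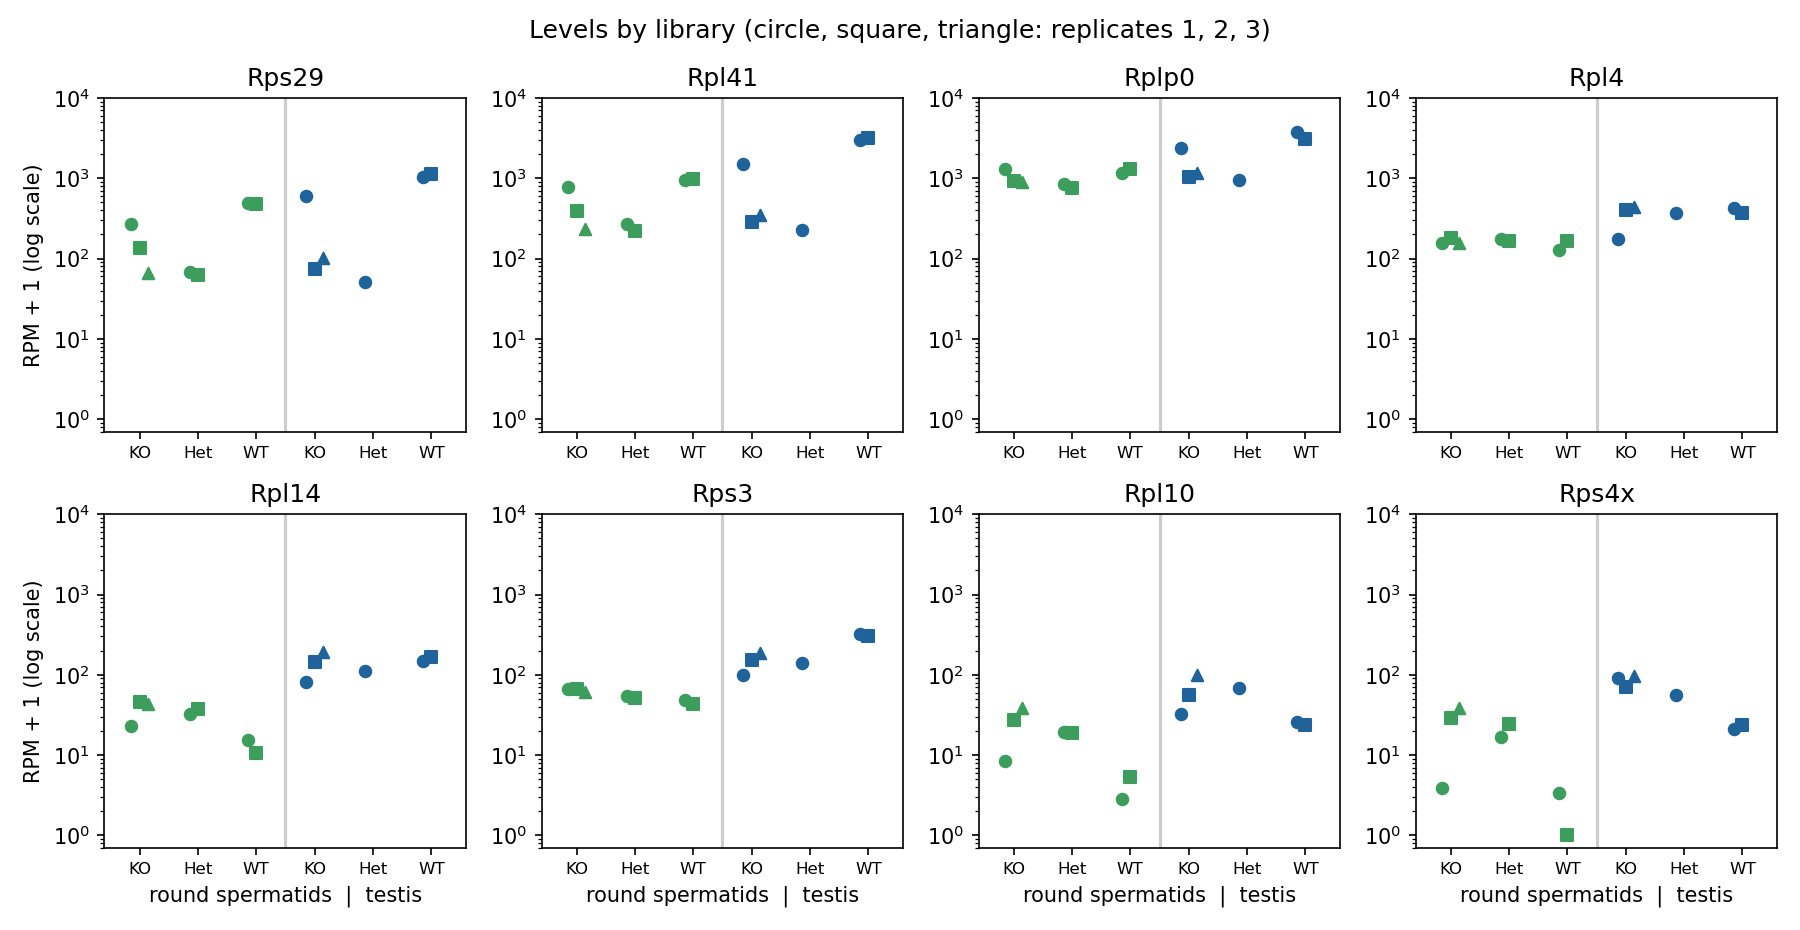
Level of 8 members in each library as RPM + 1 on a log scale, with round spermatids at the left and testis at the right of each panel, KO, Het and WT from left to right, and circle, square and triangle for replicates 1, 2 and 3. Rps29 and Rpl41 are lowest in KO replicates 2 and 3 and in Het, Rpl4 overlaps between genotypes, and every KO library is above both WT libraries in Rpl10 and Rps4x.

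The Het libraries help to place the KO values. In spermatids 66 of 76 members were lower in Het than in WT, with a median of -1.40 and 0 called by limma (0% of all genes), and 60 members had an unadjusted p under 0.05, against 25.1% of all genes. Both Het libraries were below both WT libraries in 65 members (23.2% of all genes) and above in 8 (40.6%). In testis the only Het library was below both WT libraries in 74 members (22.5% of all genes) and above both in 2 (67.2%), with a median of -2.501 and 0 called (0% of all genes), and 62 had an unadjusted p under 0.05, against 19.8%. That library is taken to vary like the other groups. Without KO replicate 1, which enters these fits through the spread and the filter on low values, 62 members passed in spermatids, against 26.4% of all genes, and 73 in testis, against 56.8%. Compared directly, KO was above Het for 72 of 76 members in spermatids, with a median of +0.53, and for 70 of 76 in testis, with a median of +0.83. Every KO library was above every Het library in 19 members in spermatids (6.19% of all genes) and in 64 in testis (12.9%). Neither comparison called a member by limma or voom, and 0.0111% of all genes were called in spermatids and 0% in testis. At an unadjusted p under 0.05 there were 13 members in spermatids and 1 in testis, against 5.12% and 0.28% of all genes. Without KO replicate 1 the medians of KO minus Het were +0.25 in spermatids and +0.43 in testis, and no member passed, against 0.0167% and 0% of all genes. The comparisons against WT share the WT libraries.

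The calls depended on which KO libraries entered. Genotype cannot be told apart from the grouping of the libraries when KO replicate 1 is left out. Without KO replicate 1, limma called 59 members in spermatids (54 lower, median -1.12), against 30.8% of all genes, and 71 in testis (69 lower, median -2.09), against 65.2% of all genes. Within the WT libraries and KO replicate 1, with the lone KO library taken to vary like WT, 4 members passed in spermatids, against 1.26% of all genes. They were Rps29, Rps27, Rpl37a and, named after its value was seen, Rps28, all lower in KO, and the median was -0.23. In testis 59 passed there (58 lower, median -0.86), against 42.1% of all genes, but the order by coding length was not seen, with a Spearman correlation of -0.23. Within Het and KO replicates 2 and 3 no member passed in spermatids (median +0.25; 0.0235% of all genes). In testis 1 passed, Rps27a, a fusion of ubiquitin and a small subunit protein, at +1.10 (0.0627% of all genes, median +0.43). In testis the median was thus negative for KO minus WT among the first libraries and positive for KO minus Het among the others.

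In WT, ribosomal protein mRNAs were a smaller part of the library in sorted round spermatids than in the whole organ. In WT all 76 members were lower in spermatids than in testis, with every spermatid library below every testis library, which was true of 23.7% of all genes. The median difference was -1.46, against +0.20 over all 20085 genes tested. Of the members 33 fell by limma's test, against 2.39% of all genes that fell and 11.5% that changed in either direction. None rose, against 9.09% of all genes, and in none was every spermatid library above, against 38.6%. The share of reads was 1.74% ± 0.01004 in WT spermatids and 4.74% ± 0.157 in WT testis (SD, n = 2 each), a ratio of 0.368. In Het the shares were closer, at 0.759% and 0.668% in spermatids and 0.876% in testis, and in KO they overlapped. Some members, among them Rps29 and Rps20, were higher in both Het spermatid libraries than in Het testis. Sertoli and stromal marker sums in WT testis are given above, and their part in the WT difference was not tested. The correlation with coding length was -0.17. With libraries centred on the median gene 16 members passed, against 5.88% of all genes, and without the testis KO library of replicate 1, 66 passed, against 29.8%. Without 1 WT library the count was 11 for spermatid replicate 2 (3.37% of all genes), 12 for spermatid replicate 1 (3.39%), 13 for testis replicate 1 (4.11%) and 16 for testis replicate 2 (5.83%), and all of these were among the 33.

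On the log2(RPM + 1) scale Rpl39 was the most reduced, with 0.701 and 0.196 RPM in spermatids and 19.7 and 34.4 in testis of WT mice, a difference of -4.25 (SE 0.77, limma adjusted p = 0.00534). All 4 X-linked members fell, with Rps4x at -3.62, Rpl36a at -3.10 and Rpl10 at -2.69. With voom Rps4x was the lowest member (-6.53) and did not pass (adjusted p = 0.0904), nor did Rpl10 (adjusted p = 0.115). Both also missed the threshold in limma with no filter on low values, and without any 1 of the WT libraries, where 0 or 1 X-linked member passed. Among the autosomal members Rpl14 had 14.3 and 9.61 RPM in spermatids and 149 and 165 in testis of WT mice (-3.63, SE 0.46, limma adjusted p = 0.00108). Rpl10a, the protein of the mobile stalk that moves used transfer RNA out, had 32.7 and 40.8 RPM in spermatids and 395 and 444 in testis of WT mice (-3.48, SE 0.33). Rps3, at the mRNA entry channel and also known from DNA repair, fell by 2.76 (SE 0.31), and Rps27a by 2.93 (SE 0.55). When 1 WT library was left out, the Rps27a call was kept only without testis replicate 2. In the small subunit head 8 of 14 members fell, and at the exit tunnel 4 of 9, against 2.39% of all genes that fell.

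The 5 members nearest to 0 were Rpl23 (-0.50), Rpl3 (-0.66), Rplp2 (-0.72), Rpl5 (-0.79) and Rpl34 (-0.84), none of which passed. Among genes of known clinical or regulatory interest, Rps19, mutated in human Diamond-Blackfan anaemia, fell by 2.096 (SE 0.43), Rpl11 by 1.49 (SE 0.39) and Rpsa, also known as the laminin receptor, by 1.12 (SE 0.25). Rpl22, which has a paralog that can replace it in mice, was at -0.998 (SE 0.50) and did not pass. Rps2 fell by 1.53 (SE 0.33). With centred libraries none of Rps19, Rpl11, Rpsa and Rps2 passed by limma (adjusted p = 0.0826, 0.169, 0.147 and 0.0501). Of them only Rpl11 missed the threshold with quantile normalization (limma adjusted p = 0.0670). Without any 1 of the WT libraries Rps19, Rpl11 and Rps2 did not pass, and Rpsa passed only without testis replicate 2. In the stalk, Rplp1 fell by 2.17 (SE 0.53) and Rplp0 by 1.46 (SE 0.35), while Rplp2 did not pass. By limma neither call held with centred libraries (adjusted p = 0.115 for Rplp1 and 0.180 for Rplp0) or with quantile normalization (0.0521 and 0.0592). Both calls were also lost without any 1 of the WT libraries.

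**Figure D4:**
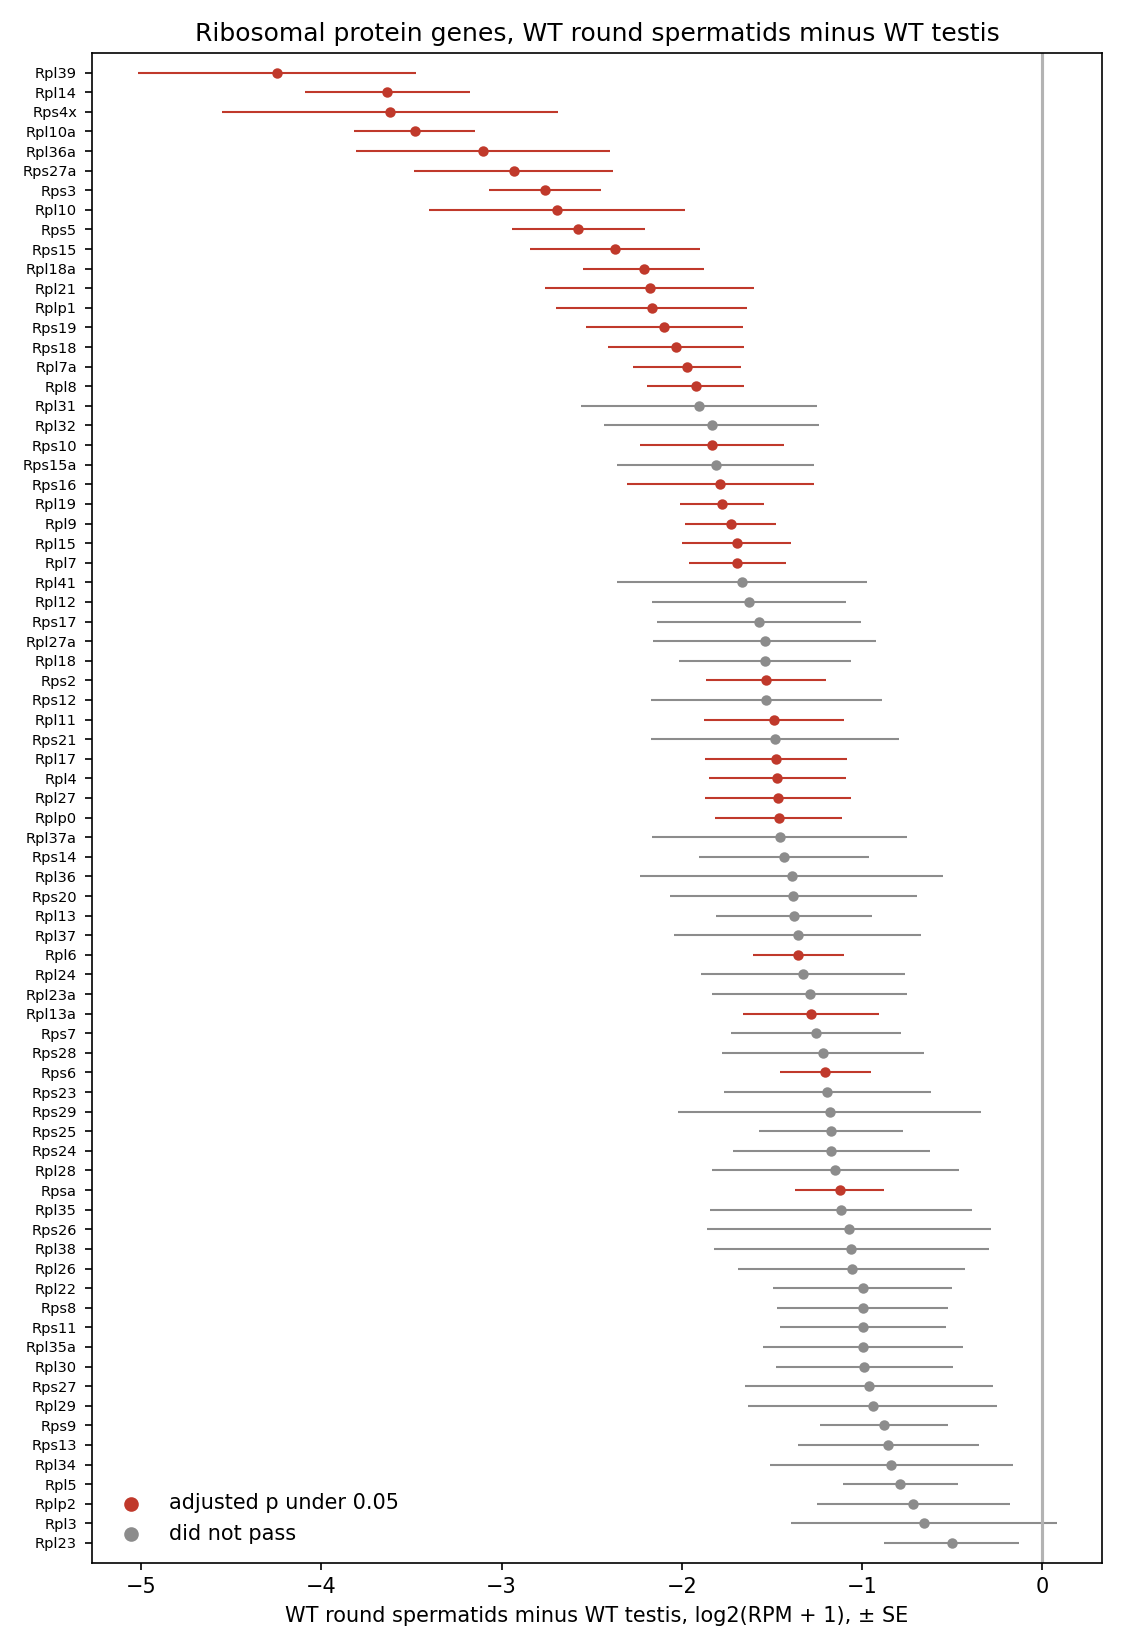
WT round spermatids minus WT testis for each of the 76 members on the log2(RPM + 1) scale (points, difference; bars, SE), sorted, with members past an adjusted p of 0.05 in red. Every point lies below 0, from -4.25 in Rpl39 to -0.50 in Rpl23.

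The KO minus WT difference was less negative in spermatids than in testis for 75 of 76 members, with a median interaction of +0.96, against -0.48 over all genes. No member passed in the interaction test of limma or with voom, against 2.13% of all genes, and 17 members had an unadjusted p under 0.05, against 17.2% of all genes. Without the testis KO library of replicate 1, 51 members passed, all positive, against 31.1% of all genes, with a median of +1.37. Without the spermatid KO library of replicate 1 none passed, against 0.625% of all genes, with a median of +0.66. Rps3 had the smallest adjusted p of the members (0.0604). It had 65.2, 65.9 and 60.8 RPM in KO, 52.9 and 50.8 in Het and 47.9 and 42.3 in WT spermatids, and 97.2, 149.8 and 187 in KO, 139.9 in Het and 320.3 and 302 in WT testis. All KO libraries were above WT in spermatids and below WT in testis.

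Levels set per length give another order. As RPM per kilobase of annotated transcript, the members spanned 0.733 to 1768 in WT spermatids (median 186) and 12.1 to 5613 in WT testis (median 545). Rpl41 led in both, at 1768 ± 26.3 in spermatids and 5613 ± 239 in testis of WT mice (SD, n = 2 each), and Rps29 came next at 1228 ± 25.9 and 2788 ± 160.2. In testis Rps29, Rpl13 (2508 ± 171) and Rplp0 (2499.9 ± 348) did not differ beyond their spread. The lowest members per length in WT spermatids were Rpl39, Rps4x, Rpl36a, Rpl21 and Rpl10, of which 4 are X-linked. The lowest values need care, since Rpl21, Rpl29, Rpl36a, Rpl39 and Rpl22 may lose reads to near-identical copies, and how the authors' counting split such reads is not given in the sources used here. By reads, with no account of length, Rplp0, Rpl41, Rpl13, Rps20 and Rps24 ranked first over the 13 libraries. Rps20, beside Rps3 in the small subunit head, had 495, 259 and 166 RPM in KO, 187 and 166 in Het and 568 and 589 in WT spermatids. Rps24, mutated like Rps19 in human Diamond-Blackfan anaemia, had 474, 299.7 and 167 RPM in KO, 204 and 190.4 in Het and 660.3 and 596 in WT spermatids. Both were below WT in every KO library. Rows of the table that are named as pseudogenes of members summed to 52.2 to 105 RPM in KO, 34.4 and 36.8 in Het and 122 and 127 in WT spermatids. The ratio of large to small subunit reads was 1.65 to 1.96 in KO, 1.86 and 1.88 in Het and 1.496 and 1.58 in WT spermatids, and 1.62 to 1.90 in KO, 2.02 in Het and 1.61 and 1.68 in WT testis. The medians of KO minus WT for the large and the small subunit were -0.73 and -0.89 in spermatids and -1.51 and -1.80 in testis.

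The medians of members with and without each promoter feature are given as a description. Those with a TOP start had a median KO minus WT difference of -1.01 in spermatids, against -0.82 for those without, and -1.74 against -1.64 in testis. With and without CCGGAAG the medians were -0.90 and -0.82 in spermatids and -1.71 and -1.60 in testis. The 5 members with TATAAA stood at +0.20, against -0.90 for the others in spermatids, and at -0.93 against -1.73 in testis. Of these 5, the X-linked Rpl36a and Rpl39 stood at +1.69 and +1.70 in spermatids, and the autosomal Rplp0, Rps2 and Rps28 at -0.26, +0.20 and -1.38. A match is only a match of letters, and its absence says nothing about the factor.

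Other lists of translation genes had medians of both signs. Over 3 ribosomal genes outside the naming rule, Fau, Rps3a1 and Rack1, the median KO minus WT difference was +0.03 in spermatids and -1.24 in testis. Fau, a small subunit protein made as a fusion, was at -0.99 (SE 0.31) and -1.93 (SE 0.68). Rack1, the scaffold on the small subunit head, was at +0.04 (SE 0.23) and -1.24 (SE 0.29). Elongation factors had a median of +0.10 in spermatids and +0.15 in testis over 9 genes, and initiation factors +0.17 and +0.26 over 35 and 36. Of the 9 elongation genes 5 were higher in KO in each cell type. Eef1b2 of that list differed by +0.22 (SE 0.18) in spermatids and -1.10 (SE 0.31) in testis. Tpt1, also listed there, differed by -0.60 (SE 0.26) and -1.21 (SE 0.38). In the initiation list Eif5b, which joins the subunits, differed by -0.40 (SE 0.25) in spermatids and +2.90 (SE 0.41) in testis, and Eif4g3 by -0.03 (SE 0.29) and +2.499 (SE 0.32). Of the 47 ribosome biogenesis genes 36 were higher in KO spermatids (median +0.36) and 33 in KO testis (median +0.96). The other TOP mRNAs listed, 18 in all, had medians of +0.01 and -0.52, with Pabpc1, the poly(A)-binding protein, at -0.17 (SE 0.13) and +1.99 (SE 0.30).

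Lists of other housekeeping genes are given for comparison. Respiratory chain genes had a median of -0.74 in spermatids and -1.49 in testis for KO minus WT, with 63 and 70 of 76 tested lower. Mitochondrial ribosomal proteins had medians of -0.18 and -0.83, with 53 and 66 of 78 lower, and the 14 proteasome core genes -0.22 and -0.65. The 20 snRNP and LSm genes stood at -0.32 and -0.01. In none of these lists did limma call a gene between KO and WT (0% of all genes). Between WT spermatids and WT testis, 19 of 77 respiratory chain genes fell and none rose, and 15 of 78 mitochondrial ribosomal protein genes fell and 1 rose. Of the 36 initiation factors 5 fell and 5 rose. Over all genes 2.39% fell and 9.09% rose.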

How the data were processed

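Smart-seq2 libraries, which copy polyadenylated RNA, keep no strand and carry no molecular identifiers, were made from 2 ng of testis RNA or from sorted spermatids, per the labels' protocols. The submitters' processing notes name HISAT2 2.1.0, Trim Galore 0.6.6 and FastQC 0.11.8, with build mm10. Which counter and annotation were used is not given in the sources used here. The authors deposited log2 RPM for each gene and library, 0.9 read standing in for 0. Depending on the library, 99.8% to 99.996% of values were whole reads within 0.01 read. RPM was recovered from the deposited log2 values, with unread genes at 0. A gene entered a fit when it reached 1 RPM in 2 or more of its libraries. The tests used log2(RPM + 1), which shrinks differences of weakly expressed genes, and limma 3.58.1 (lmFit, eBayes with trend) in R 4.3.3. Tests were two-sided, p was adjusted over all genes by Benjamini-Hochberg, and 0.05 was the threshold. All 76 members entered every main comparison. Each cell type was fitted with its 3 genotypes, while spermatids against testis and the interaction came from 1 fit of 13 libraries. As the unit is not a count, voom on recovered reads was only an alternative. A level of 3 reads, the most that a count of 0 allows, was 0.143 to 0.407 RPM, for counting error only.

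The members, lists, library groupings and tests were chosen with earlier results of these data known. Named members are the 5 lowest and 5 highest of each KO minus WT comparison and of spermatids minus testis. Also named are the 5 of highest and of lowest mean RPM, and members of known role. The 2 genes with the smallest p are named for some of the other lists only: ribosomal genes outside the rule, elongation, initiation and other TOP mRNAs. One non-member gene was left out of the lists of other genes and is not reported here. Replicate numbers and alternatives are covered in the closing section. The fits were tested on simulated data that held no grouping of libraries like the one described above, so that test does not bear on it.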

Additional observations from a re-analysis of the deposited data

Results flagged for a closer look

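Rps3, a protein at the mRNA entry channel of the small subunit, was singled out because its KO libraries lay on opposite sides of WT in the 2 cell types: above WT in all 3 KO spermatid libraries and below WT in all 3 KO testis libraries. The KO minus WT difference was +0.50 (SE 0.21) in spermatids and -1.15 (SE 0.37) in testis, and the difference between them was 1.64 (SE 0.40) on the log2 scale, with an adjusted p of 0.0604 in limma's interaction test, which misses the threshold. Groups of 2 or 3 libraries are too small for a test of single outlying libraries.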

How the results depend on the processing

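Counts are members called by limma, with the main value first. For spermatids minus testis in WT (33), centred libraries gave 16, quality weights 71, a replicate block by genotype and number, chosen after seeing the data, 55, and leaving out 1 library 11 to 66. For the interaction (0), a mean of at least 5 RPM gave 4, quality weights 57, a loess on transcript length 1, the library set as a covariate 26, and leaving out 1 library 0 to 51. For KO minus WT in spermatids (0), quality weights gave 58, the WT libraries with KO replicate 1 gave 4, and leaving out 1 library 0 to 59. For KO minus WT in testis (0), quality weights gave 71, a replicate block 4, 1 fit of all libraries 55, the set covariate 58, WT with KO replicate 1 gave 59, and leaving out 1 library 0 to 71. For Het minus WT in spermatids (0), centring gave 35, quantile normalization 44, quality weights 61, a replicate block 53, the loess 15, and leaving out 1 library 0 to 62. For Het minus WT in testis (0), quality weights gave 73, a replicate block 44, 1 fit of all libraries 57, and leaving out 1 library 0 to 73. For KO minus Het in testis (0), Het with KO replicates 2 and 3 gave 1. The causes were not tested. Of the recomputed median member differences 133 stayed within 1 SD between libraries, 19 moved further and 0 changed sign. Voom called 42 members in spermatids minus testis and 0 in every other comparison.

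Of named members, Rpl36a in testis (KO minus WT, +0.11) was -0.83 with centring, -0.86 with quantile normalization, -0.14 with the replicate block, -0.26 with the set covariate and within WT and KO replicate 1, and -0.14 to 0.32 on leaving out 1 library. Rpl4 (-0.36) was 0.012 with quantile normalization, 0.044 with quality weights and -0.60 to 0.062 on leaving out 1 library. Rpl14 (-0.27) was 0.036 with quality weights, 0.22 with the loess and -0.54 to 0.068 on leaving out 1 library. Same-numbered libraries did not all deviate together: correlations were at most 0.05 in size between genotypes, and 0.50, 0.28 and 0.40 for KO replicates 1, 2 and 3 between cell types, so the numbers were not taken as pairs. Smart-seq2 reads are not independent molecules, and members under about 1 RPM in WT spermatids rest on few reads.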
